A study of Mus musculus with 6 samples.

Results

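The genes described here are 10 genes of the melanocyte, the pigment cell from which melanoma arises, among 53801 genes counted in RNA of mouse melanomas. They were listed by name (Mitf, Sox10, Mc1r, Tyr, Tyrp1, Dct, Pmel, Mlana, Slc45a2 and Gpr143), and each was matched to 1 Ensembl gene on the mouse genome GRCm38. The tumours grew under the skin of male, wild-type C57BL/6 mice aged 10 to 12 weeks from B16-F10 cells, a pigmented mouse melanoma line from the same strain. In the SEVO group the cells were primed before injection with 2% sevoflurane, a volatile anaesthetic, in air in a closed chamber that was flushed for 30 min and held for another 2 h, whereas the CTRL group received unprimed cells, and the primed cells were injected into awake mice. A new frozen stock of cells was thawed for each experimental arm, so that, if CTRL and SEVO had separate stocks, stock and priming cannot be told apart. Each group held 3 tumours (n = 3), and RNA came from small pieces of whole tumour, so that host skin, vessels and immune cells can be part of each sample and the skin of these mice holds melanocytes of its own. In such bulk RNA, fewer cells of a type and less RNA per cell cannot be told apart.

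Melanocytes make melanin in the melanosome, a specialised organelle. MITF is the transcription factor that commits cells to this lineage and switches on the pigment genes, and SOX10, a factor of the neural crest, activates Mitf. Signals through the melanocortin receptor MC1R raise cyclic AMP and with it Mitf. Tyrosinase (Tyr) and the related enzymes TYRP1 and DCT make melanin, PMEL forms the fibrils on which it is laid down, MLANA takes part in melanosome maturation, SLC45A2 is a transporter that keeps the organelle at the pH tyrosinase needs, and GPR143 is a receptor in the melanosome membrane.

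Sequence before the start sites is shown for the enzymes, for Mc1r and for the most downstream of 3 listed starts of Mitf, because MITF is known to bind short CATGTG elements at pigment genes. The RefSeq table on GRCm38.p6 held promoters for 5 of the 10 genes (Tyr, Tyrp1, Dct, Mitf with 3 starts, and Mc1r). It held none for Pmel, Mlana, Sox10, Slc45a2 and Gpr143. The 250 bases before each start are written 5′ to 3′ on the strand of the gene, with capitals for every match, on either strand, to the motifs searched. These were CATGTG and the longer TCATGTG that contains it, so that their matches overlap, and also CACGTG and TGACGTCA. The positions were chr7:87493513-87493762 (minus strand) for Tyr, chr4:80833963-80834212 (plus) for Tyrp1, chr14:118052247-118052496 (minus) for Dct, chr8:123406832-123407081 (plus) for Mc1r and chr6:97991533-97991782 (plus) for Mitf.
Tyr: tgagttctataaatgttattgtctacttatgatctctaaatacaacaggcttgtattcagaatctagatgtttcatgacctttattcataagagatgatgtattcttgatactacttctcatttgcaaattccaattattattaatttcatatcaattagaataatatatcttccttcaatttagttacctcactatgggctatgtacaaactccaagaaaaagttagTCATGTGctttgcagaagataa
Tyrp1: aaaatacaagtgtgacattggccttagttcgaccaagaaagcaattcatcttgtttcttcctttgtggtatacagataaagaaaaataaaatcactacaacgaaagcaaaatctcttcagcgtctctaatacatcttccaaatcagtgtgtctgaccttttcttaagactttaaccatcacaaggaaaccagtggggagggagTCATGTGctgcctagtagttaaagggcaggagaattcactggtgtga
Dct: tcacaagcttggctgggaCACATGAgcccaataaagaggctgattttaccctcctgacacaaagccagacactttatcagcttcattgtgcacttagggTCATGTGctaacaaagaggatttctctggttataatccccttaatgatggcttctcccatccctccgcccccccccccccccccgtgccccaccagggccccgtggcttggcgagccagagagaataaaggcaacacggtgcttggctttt
Mc1r: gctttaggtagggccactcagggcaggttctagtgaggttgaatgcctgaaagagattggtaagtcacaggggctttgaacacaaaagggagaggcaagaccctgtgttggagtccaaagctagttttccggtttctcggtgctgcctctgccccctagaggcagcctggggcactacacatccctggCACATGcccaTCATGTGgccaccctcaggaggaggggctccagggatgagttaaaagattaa
Mitf: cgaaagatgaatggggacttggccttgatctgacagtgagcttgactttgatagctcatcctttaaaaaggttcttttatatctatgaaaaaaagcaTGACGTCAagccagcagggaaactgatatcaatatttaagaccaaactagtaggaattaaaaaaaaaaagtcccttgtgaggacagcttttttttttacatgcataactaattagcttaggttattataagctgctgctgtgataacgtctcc
TCATGTG was present before the starts of Tyr (bases -22 to -16 from the start), Tyrp1 (-47 to -41), Dct (-151 to -145, with a copy on the other strand at -232 to -226) and Mc1r (-52 to -46). Mc1r also held CATGTG on the other strand at -62 to -57. TCATGTG occurred in 3.25% of 32851 promoter windows of the same length, and the shorter CATGTG in 12.3%. None of the 3 Mitf windows held either, and the one printed held TGACGTCA, the element bound by cyclic AMP-responsive factors, which occurred in 1.55% of all windows. CACGTG, present in 6.02% of all windows, was in none of the 7 windows. These matches are letters in a window and were not tested as binding sites.

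Few reads were counted on these genes, although 29284963 to 41894798 reads per tumour were uniquely aligned. Of the aligned reads, 27930688 to 41026677 per tumour fell on no gene as counted. Counted reads on genes numbered 723431 to 1348676 in a tumour, 2.06% to 4.61% of the uniquely aligned reads, and the predicted genes Gm10800 and Gm10801 took 1.31% (CTRL tumour 2) to 49.0% (CTRL tumour 1) of them. The 10 melanocyte genes together had 1055, 1060 and 1106 reads in CTRL tumours 1 to 3 and 545, 685 and 1578 in SEVO tumours 1 to 3. These were 0.0782%, 0.147% and 0.106% of the counted reads in CTRL and 0.0631%, 0.0766% and 0.178% in SEVO tumours. The SEVO tumours held both the lowest and the highest value on either scale. The CTRL tumours lay close together in reads but not as a share of all counted reads. In that share SEVO tumour 2 was next to CTRL tumour 1. With Gm10800 and Gm10801 left out of the counted reads, the CTRL tumours lay close together as a share too. SEVO tumours 1 and 2 were then below every CTRL tumour and SEVO tumour 3 above every one. The order was the same relative to the uniquely aligned reads. Levels are given below as CPM, counts relative to the library size after adjustment by the TMM factors of edgeR. Differences are log2 fold changes of SEVO over CTRL from its quasi-likelihood test over the 7561 genes with enough reads, each with its standard error (SE) and with Benjamini-Hochberg adjustment over all of them. Of the 10 genes, 8 passed this filter, while Mc1r and Gpr143 had too few reads.

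None of the melanocyte genes passed the test. In edgeR, 0 of the 8 had an adjusted p under 0.05 and 0 had an unadjusted p under 0.05. DESeq2 and limma voom also gave 0 of them at either threshold. In the background, 0% of the 7561 tested genes passed at an adjusted p under 0.05 and 4.36% (330 genes) at an unadjusted p under 0.05. The 8 genes had a median log2 fold change of -0.36, from -0.73 in Tyr to -0.12 in Sox10, beside -0.02 over all tested genes. All 8 were below 0, as were 51.1% of all tested genes, but Pmel and Sox10 were above 0 with scaling to library size only and in DESeq2, and Pmel, Sox10, Tyrp1 and Slc45a2 without the filter, where the median of the same 7561 genes was 0.22, 0.29 and 0.44. The SEVO and CTRL groups overlapped in CPM in each of the 8 genes. Over all tested genes, 4.39% did not overlap with SEVO lower and 4.17% with SEVO higher.

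The transcription factor genes of the lineage had fewer reads than Tyrp1, Dct and Pmel. Mitf (ENSMUSG00000035158.15, chromosome 6 from 97807052 to 98021349) gave 62, 73 and 67 reads in CTRL and 27, 23 and 101 in SEVO tumours 1 to 3. SEVO tumours 1 and 2 lay below every CTRL tumour and SEVO tumour 3 above every one. The mean was 81.2 ± 8.98 CPM for CTRL and 55.3 ± 47.6 CPM for SEVO (here and below with the SD of 3 tumours), and the log2 fold change -0.55 (SE 0.48, adjusted p = 0.754 from edgeR). Sox10 (ENSMUSG00000033006.10, chromosome 15 from 79154908 to 79165240) was counted 23, 23 and 21 times in CTRL and 10, 28 and 30 times in SEVO tumours. Only SEVO tumour 1 was low in reads, and the means of 27 ± 2.52 and 24.8 ± 11.6 CPM were close (log2 fold change -0.12, SE 0.46, adjusted p = 0.921). The 95% interval of the difference ran from -1.12 to 0.88 for Sox10 and from -1.60 to 0.49 for Mitf.

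Of the 3 melanin enzymes, Tyr, which catalyses the first steps of the pathway, was the least counted. It had 54, 32 and 62 reads in CTRL and 17, 19 and 61 in SEVO tumours (ENSMUSG00000004651.6, chromosome 7 from 87424771 to 87493512). SEVO tumours 1 and 2 were below the CTRL range and SEVO tumour 3 inside it. The mean was 58.9 ± 16.5 in CTRL and 35.5 ± 26.9 CPM in SEVO, the largest difference of the tested melanocyte genes (log2 fold change -0.73, SE 0.47, adjusted p = 0.741, exact permutation p = 0.3). Tyrp1, which acts late in eumelanin synthesis, had 307, 210 and 233 reads against 115, 158 and 361 (ENSMUSG00000005994.14, chromosome 4 from 80834123 to 80851719). Again SEVO tumours 1 and 2 had the fewest reads and SEVO tumour 3 the most, around means of 301 ± 62 and 232 ± 141 CPM (log2 fold change -0.38, SE 0.43, adjusted p = 0.788). Dct, the dopachrome tautomerase, had the most reads of all 10 genes, 327, 469 and 424 in CTRL and 206, 234 and 619 in SEVO tumours (ENSMUSG00000022129.4, chromosome 14 from 118012790 to 118052244). Its order was the same, with 491 ± 95.7 in CTRL and 388 ± 249 CPM in SEVO (log2 fold change -0.34, SE 0.45, adjusted p = 0.799).

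The genes of melanosome structure and transport followed the enzymes. Pmel had 202, 198 and 225 reads in CTRL and 134, 180 and 302 in SEVO tumours (ENSMUSG00000025359.10, chromosome 10 from 128704195 to 128720238). Its CTRL values were the tightest of the list, 251 ± 6.76 CPM, against 226 ± 92 CPM in SEVO tumours (log2 fold change -0.15, SE 0.37, adjusted p = 0.879). Mlana gave 18, 15 and 24 reads against 6, 4 and 32 (ENSMUSG00000024806.3, chromosome 19 from 29697824 to 29708634), and its 22.7 ± 4.43 and 15.4 ± 17 CPM made it the most spread of the 8 tested genes in the SEVO group relative to its mean. Its log2 fold change of -0.56 (SE 0.68, adjusted p = 0.791) had the widest interval of the 8, from -2.04 to 0.92. Slc45a2 gave 50, 31 and 37 reads against 21, 28 and 53 (ENSMUSG00000022243.10, chromosome 15 from 11000721 to 11029233). SEVO tumours 1 and 2 were the lowest here too, while CTRL tumour 1, at 60.7 CPM, was just above SEVO tumour 3 at 57.8 CPM (log2 fold change -0.34, SE 0.40, adjusted p = 0.790).

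**Figure D1:**
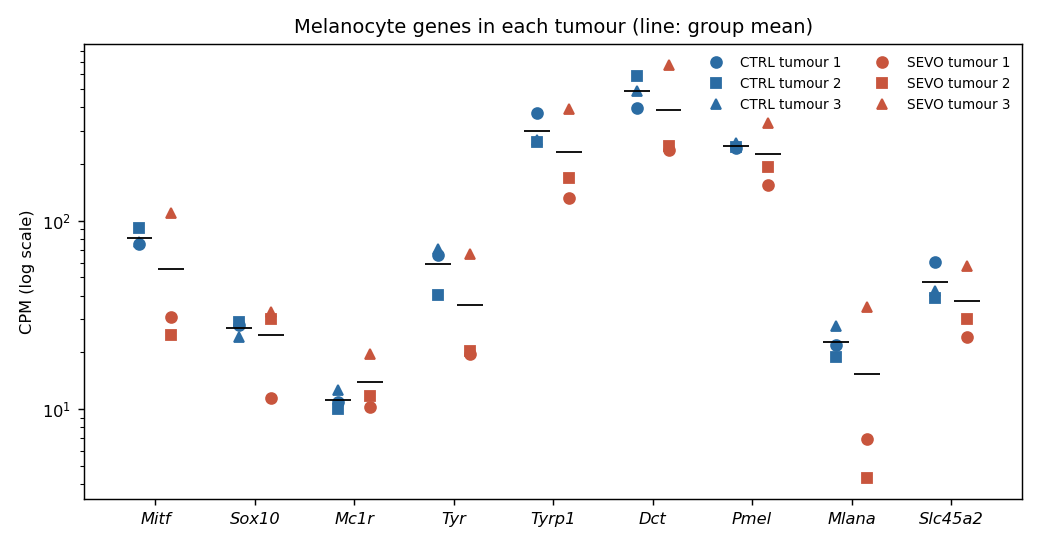
CPM (log scale, scaled as in the edgeR fit of 7561 genes) of 9 melanocyte genes in each of 3 CTRL (blue) and 3 SEVO (red) tumours, with lines at the group means; Gpr143 is left out because 2 tumours had no read. In Mitf, Tyrp1, Dct, Pmel and Mlana, SEVO tumour 3 was the highest tumour and SEVO tumours 1 and 2 the lowest.

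Both receptor genes had few counted reads. For Mc1r this need not be a low level of its RNA, since a gene on the other strand inside its exon, described further on, had 232 to 959 reads per tumour and the strand setting of the counting is not given in the sources used here. Mc1r (ENSMUSG00000074037.3, chromosome 8 from 123407107 to 123410744) had 9, 8 and 11 reads in CTRL and 9, 11 and 18 in SEVO tumours, a range in which the groups overlap. It was tested in a fit over all 42423 genes with at least 1 read, where its log2 fold change was 0.78 (SE 0.64, adjusted p = 0.793) and its scaled SEVO values all lay above the CTRL values (exact permutation p = 0.1, the smallest that 3 against 3 can give). That fit puts the median of the 7561 well-counted genes at 0.44. On the scale of those genes, an alternative chosen after seeing the data, Mc1r had 11.2 ± 1.31 and 13.9 ± 4.99 CPM, the groups overlapped and the log2 fold change was 0.31 (SE 0.74, adjusted p = 0.867). Gpr143 (ENSMUSG00000025333.10, chromosome X from 152781921 to 152808646) had 3, 1 and 2 reads against 0, 0 and 1. No fold is given for it, since no tumour exceeded 3 reads. Over all 10 genes in the fit of 42423 genes, 5 were below 0 and the median log2 fold change was 0.02 (0.06 without Gpr143), beside a median of -0.38 over all genes of that fit and 0.44 over the well-counted ones.

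Per kilobase of exon, counting every annotated exon base of a gene, the 10 genes fell into different levels. This length can exceed that of the transcripts present, and was 7108 bases for Tyr and 2292 for Pmel. Pmel averaged 104 CPM per kb over the 6 tumours (range 67.2 to 144), Tyrp1 94.2 (46.8 to 139) and Dct 74.5 (40.2 to 115). These 3 overlapped each other in range and lay above every tumour's value of the other 7 genes. Mlana (18.0), Slc45a2 (14.2), Mitf (11), Sox10 (8.47) and Tyr (6.64) came next, with ranges that overlapped from one gene to the next, followed by Mc1r at 3.45 and Gpr143 at 0.692 CPM per kb. Mc1r overlapped Tyr in range (2.76 to 5.40 against 2.75 to 10), so these neighbours cannot be ordered either. Tyr stood more than an order of magnitude below Pmel per length.

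In these genes the SEVO tumours differed more widely among themselves than the CTRL tumours did. SEVO tumour 3 was the highest of the 6 tumours in 6 of the 8 tested genes, and SEVO tumours 1 and 2 were the 2 lowest in 7 of them. Both held in 5 genes (Mitf, Tyrp1, Dct, Pmel and Mlana), an order shown by 2.18% of all tested genes. This pattern was described after the values were seen. Relative to each gene's mean over the 6 tumours, the median of the 8 genes on the log2 scale was 0.37, 0.15 and 0.20 in CTRL tumours 1 to 3 and -0.90, -0.62 and 0.65 in SEVO tumours 1 to 3. Without SEVO tumour 3, the median log2 fold change of the 8 genes was -0.95, and 7 of them no longer overlapped between the groups, all lower in SEVO, beside 18.0% of all genes tested in that fit. Mitf then reached -1.49, Tyr -1.51, Mlana -1.95 and Tyrp1 -0.95, each with an unadjusted p under 0.05, as had 12.1% of all tested genes in the same direction, but the lowest adjusted p of the melanocyte genes in edgeR was 0.329. Without SEVO tumour 1 the median of the 8 genes was -0.04 and without SEVO tumour 2 it was -0.12.

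**Figure D2:**
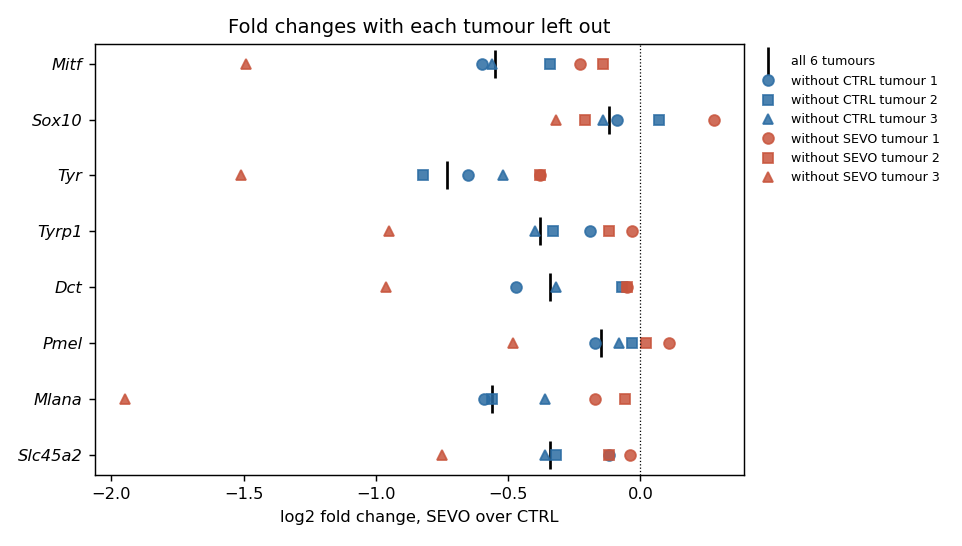
Log2 fold changes (SEVO over CTRL, edgeR) of the 8 tested melanocyte genes with all 6 tumours (black bar) and with each tumour left out in turn (blue, CTRL; red, SEVO). Leaving out SEVO tumour 3 moved all 8 genes further below 0, to between -0.32 and -1.95.

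The strand setting of the read counting is not given in the sources used here, so the reads given under a gene's name may come from its own strand or from the opposite one, and this holds for all levels and fold changes given here. Reads on genes that lie opposite the melanocyte genes were therefore set beside them. Exons of 3 genes shared bases with the exons of a melanocyte gene on the other strand. Gm38092 (ENSMUSG00000103244.1, chromosome 8 from 123408100 to 123408752), a provisional transcript of 1 exon, lies with all of its 653 exon bases opposite the single exon block of Mc1r, 355 of them opposite its coding sequence. It had 232, 633 and 499 reads in CTRL and 791, 959 and 557 in SEVO tumours, that is 25.8 to 87.9 reads for every read on Mc1r in the same tumour. Its level was 549 ± 257 in CTRL and 849 ± 217 CPM in SEVO, with CTRL tumour 2 and SEVO tumour 3 overlapping (log2 fold change 0.63, SE 0.45, adjusted p = 0.741). A further gene on the strand of Mc1r, Gm20388, spans it without sharing an exon base.

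Pmel is flanked by 2 genes of the other strand that reach into its ends. Dgka, which encodes a diacylglycerol kinase, shared 105 exon bases with Pmel and had 158, 245 and 240 reads in CTRL and 338, 358 and 254 in SEVO tumours. SEVO tumours 1 and 2, the lowest for Pmel, were the highest for Dgka (258 ± 59.6 and 350 ± 63.2 CPM, log2 fold change 0.44, SE 0.36, adjusted p = 0.748). Cdk2, a cell cycle kinase gene that MITF is reported to activate in melanoma, shared 34 bases at the other end and had 71, 26 and 34 reads against 22, 24 and 27. All CTRL tumours lay above all SEVO tumours in CPM, though not in reads (52.6 ± 29.3 and 26.8 ± 2.28 CPM, log2 fold change -0.97, SE 0.42, adjusted p = 0.741, exact permutation p = 0.1). Without CTRL tumour 1, its highest value, the log2 fold change of Cdk2 was -0.41.

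Within the body of Dct, the antisense gene 4930435M08Rik (chromosome 14 from 118044974 to 118046864) shares no exon base with it and was named after its values were seen. It had 855, 1286 and 683 reads in CTRL and 1357, 1247 and 967 in SEVO tumours, more than Dct in all 6 tumours. For every read on Dct there were 2.61, 2.74 and 1.61 reads on 4930435M08Rik in CTRL and 6.59, 5.33 and 1.56 in SEVO tumours. This ratio needs no scaling between libraries, and SEVO tumours 1 and 2 stood above the CTRL tumours with SEVO tumour 3 below them (mean log2 ratio 1.18 ± 0.42 and 1.92 ± 1.12, SD, exact permutation p = 0.4, two-sided). A pseudogene within an intron of Mitf on the other strand, Gm15531, had 1 to 9 reads per tumour. No gene overlapped Tyr, Tyrp1, Mlana, Sox10, Slc45a2 or Gpr143.

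**Figure D3:**
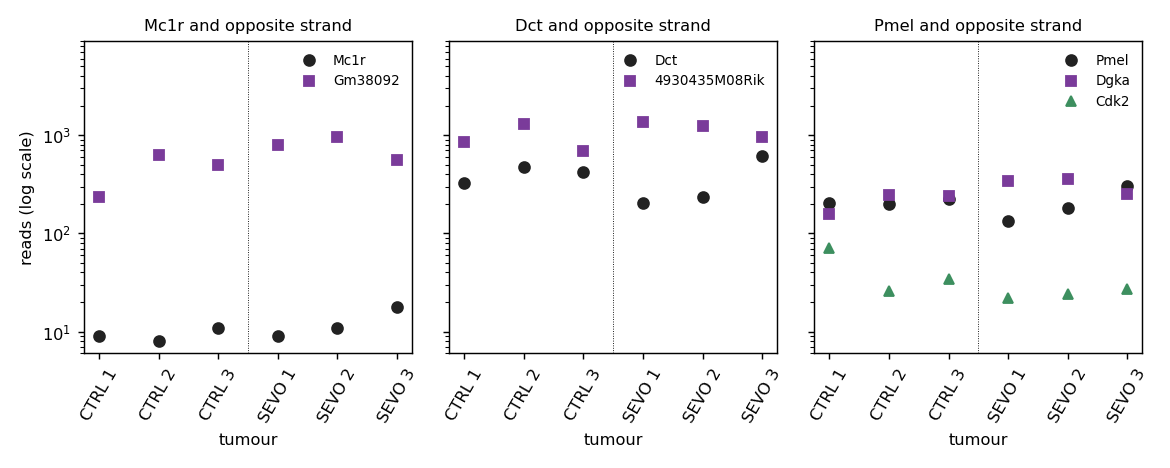
Reads (log scale) in each of the 6 tumours on Mc1r, Dct and Pmel (black circles) and on the genes of the other strand at the same place (purple squares, and green triangles for Cdk2). Gm38092 lay above Mc1r and 4930435M08Rik above Dct in all 6 tumours.

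**Figure D4:**
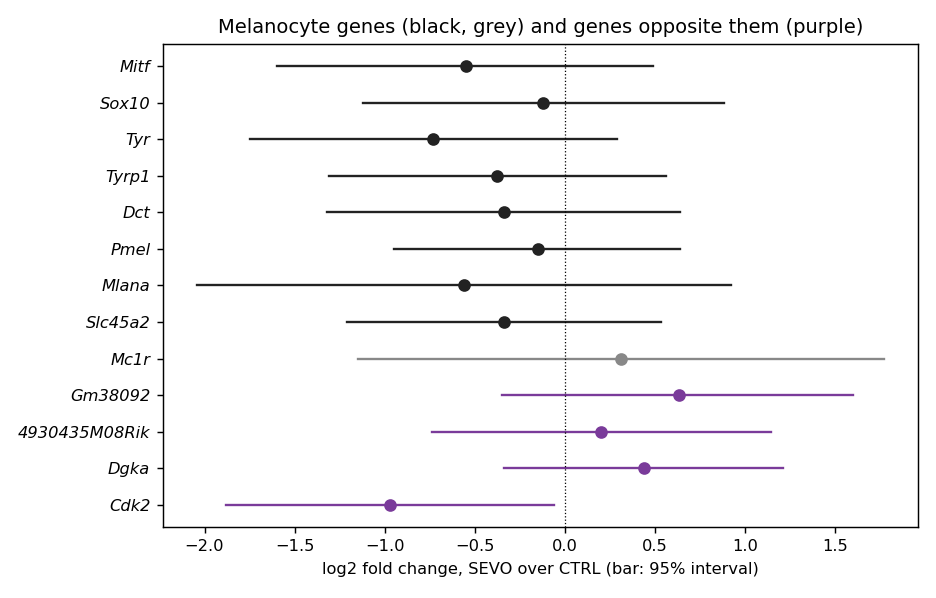
Log2 fold changes (points) with 95% intervals (bars) from edgeR for 8 tested melanocyte genes (black), Mc1r on the same scale (grey) and the genes opposite them (purple). All intervals of the melanocyte genes include 0, and Cdk2 is the one gene shown whose interval, from -1.88 to -0.06, does not.

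Genes that work with the melanocyte genes were taken from 6 lists of 86 genes, 85 of which were matched. Of these, 38 passed the filter, 30 (78.9%) were below 0 and 8 were above, whereas 51.1% of all tested genes were below 0. Their median log2 fold change was -0.73, beside -0.02 over all tested genes. The same 51.1% and -0.02 are the background for the single lists below. In edgeR, 0 of the 38 passed an adjusted p under 0.05. At an unadjusted p under 0.05 there were 4 (10.5%), all lower in SEVO, beside 4.36% of all tested genes. The groups did not overlap in 7 of the 38 with SEVO lower and in 1 with SEVO higher, beside 4.39% and 4.17% of all tested genes. With scaling to library size only, 25 of the 38 were below 0, beside 38% of all tested genes. With scaling to all uniquely aligned reads 33 of the 38 were, beside 61.8% of all tested genes. Without the filter, 55 of 84 list genes were below 0, beside 61.9% of all genes in that fit. In DESeq2, also without the filter, 61 of 84 were, beside 66.2%. On the scale of the filtered genes 72 of 84 were, beside 78.4%. In each of these unfiltered fits the list share lay closer to that of all genes.

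In melanosome transport, 7 of 8 tested genes were below 0 (median -0.77). Myo5a, the myosin that carries melanosomes along actin, had 91, 77 and 112 reads in CTRL and 38, 43 and 86 in SEVO tumours (112 ± 16 and 61.2 ± 28.2 CPM). The groups did not overlap in CPM (log2 fold change -0.87, SE 0.37, adjusted p = 0.741, exact permutation p = 0.1). Its partner Rab27a, the small GTPase on the melanosome surface, had 27, 14 and 20 reads against 9, 10 and 15 and also did not overlap in CPM (-0.96, SE 0.52, adjusted p = 0.741), and neither did Kif5b, a kinesin heavy chain gene (-0.90, SE 0.44, adjusted p = 0.741). In cargo sorting to the melanosome, 7 of 10 tested genes were below 0 (median -0.55). They included Lyst, a regulator of lysosome-related organelles (-1.42, SE 0.61, adjusted p = 0.741), Cd63, a tetraspanin that sorts PMEL (-1.01, SE 0.58, adjusted p = 0.741), and Hps5 (-0.84, SE 0.52, adjusted p = 0.741). The most counted gene of that list, Ap3m1, an adaptor subunit, went the other way, with 960, 1027 and 1201 reads in CTRL and 2336, 1356 and 1711 in SEVO tumours. Its groups did not overlap in CPM either, with SEVO higher (log2 fold change 0.65, SE 0.43, adjusted p = 0.741, exact permutation p = 0.1).

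Among the transcription regulators, 5 of 6 tested genes were below 0 (median -0.59). Pax3, which acts with SOX10 on Mitf, had 46, 17 and 40 reads in CTRL and 13, 20 and 32 in SEVO tumours (-0.78, SE 0.47, adjusted p = 0.741), and Ets1 had 73, 34 and 71 against 22, 28 and 48 (-0.98, SE 0.40, adjusted p = 0.741). Sox5 (-1.12) and Zeb2 (-0.40) were not past the test either. Sox5 had 46, 3 and 17 reads in CTRL and 7, 9 and 17 in SEVO tumours, so that CTRL tumour 1 was the highest and CTRL tumour 2 the lowest. All 7 tested genes on the list of other reported MITF targets were below 0 (median -0.84), with Cdk2 as above, Met, the receptor of hepatocyte growth factor, at -0.90 (SE 0.48, adjusted p = 0.741) and Bcl2 at -1.36 (SE 0.77, adjusted p = 0.741). Met had 228, 118 and 191 reads in CTRL and 49, 70 and 196 in SEVO tumours, so that SEVO tumours 1 and 2 were again the lowest, with SEVO tumour 3 inside the CTRL range. Bcl2 had 39, 3 and 13 reads in CTRL and 7, 6 and 10 in SEVO tumours. As in Sox5, CTRL tumour 1 was the highest and CTRL tumour 2 the lowest. Of the transporters of ions and metabolites, 3 of 5 tested genes were below 0 (median -0.76), namely Slc36a1, Atp7a and Slc7a11 (-0.76, -0.86 and -0.91), while Slc24a5, an exchanger required for normal pigment, was the most counted with 3303 reads in all and stood at 0.40 (SE 0.47, adjusted p = 0.789). Slc7a11 had 28, 2 and 19 reads in CTRL and 9, 7 and 12 in SEVO tumours, with CTRL tumour 2 again the lowest. Only Gnas (-0.37) and Mgrn1 (0.36) could be tested among the receptors and ligands.

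Overlap with a gene of the other strand went along with the direction of these differences. Of the 22 tested list genes with no exon base opposite another gene, 21 were below 0 (95.5%, median log2 fold change -0.82), and of the 16 with such bases 9 were (56.2%, median -0.33). The same split over all tested genes gave 64.2% of 3692 genes (median -0.31) and 38.6% of 3869 genes (median 0.14). Among the melanocyte genes, the 7 with no such bases had a median of -0.38, near the -0.31 of the genes of that kind, and Pmel, the tested gene with them, stood at -0.15. Slc24a5, Ap3m1 and Mgrn1, all above 0, each have such bases, as do Kif5b, Sox5, Zeb2, Gnas, Cdk2 and Bcl2, all below 0. Slc24a5 shares 921 with Myef2, which had 2996 to 9437 reads per tumour, and Ap3m1 shares 2090 with Vcl, which had 57 to 72. Gnas, with 30 to 65 reads, shares 1469 with Gm20721 (4674 to 11205) and 988 with Nespas (0 to 7). Reads were 47 to 91 on Zeb2 and 100 to 228 on Zeb2os opposite it. In the same way they were 3 to 46 on Sox5 and 54 to 110 on Sox5os1, and 11 to 46 on Kif5b and 129 to 250 on Gm17036. For Bcl2 and D630008O14Rik they were 3 to 39 and 105 to 223, and for Mgrn1 and Gm16861 137 to 290 and 217 to 555. What part the strand of the reads has in these differences was not tested.

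**Figure D5:**
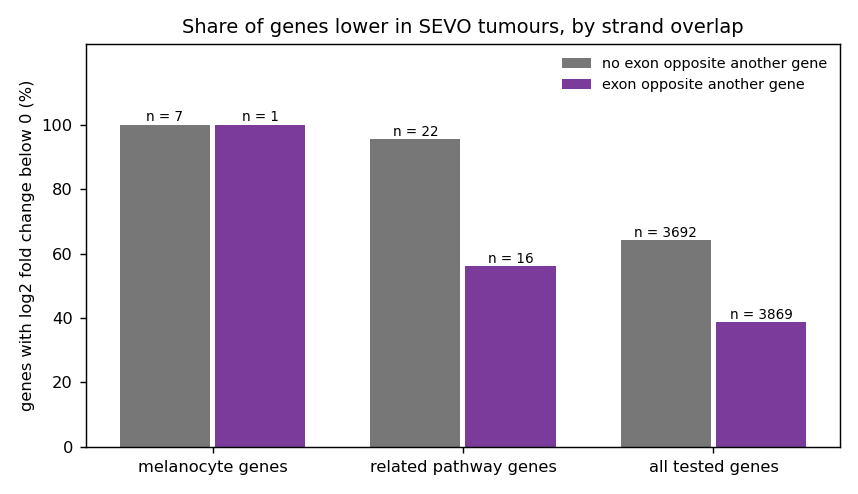
Share of tested genes with a log2 fold change below 0 (SEVO over CTRL), for genes with no exon base (grey) and with at least 1 exon base (purple) opposite another gene. Over all tested genes the shares were 64.2% and 38.6%, and 1 melanocyte gene, Pmel, stands in the purple bar of the first pair.

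The labels name the tissue as melanoma and the cell type as monocytes, and the markers of both were compared. Ptprc, which encodes the pan-leucocyte antigen CD45, had 2 to 26 reads per tumour, Ly6c2 0 to 4 and Adgre1, a macrophage gene, 0 to 9, while Pmel had 134 to 302. Per kilobase, Cd68 ranged from 6.39 to 16.4 CPM and Ptprc from 0.137 to 1.72, beside 67.2 to 144 for Pmel. Csf1r stood higher, at 18.5 to 51.2 CPM per kb, and 873 of its exon bases lie opposite Hmgxb3. Reads per tumour were 88 to 257 on Csf1r and 4 to 13 on Hmgxb3. Pmel, Tyrp1 and Dct thus lay above Ptprc, Ly6c2, Cd68 and Adgre1 per length, whereas Cd68 overlapped Mlana, Slc45a2, Mitf, Sox10 and Tyr in range and Csf1r overlapped Tyrp1, Dct, Mlana and Slc45a2. The samples are treated here as whole tumour. The summed CPM of the monocyte list was 194 to 271 in CTRL and 226 to 319 in SEVO tumours, mostly from Csf1r. The other 9 monocyte markers together had 72, 7 and 42 reads in CTRL and 20, 16 and 31 in SEVO tumours. The summed CPM of the macrophage list was 66.5 to 135 and 54.7 to 128. Schwann cell markers, of interest because these cells also express Sox10, summed to 45.2 to 115 and 27.9 to 68.7 CPM, fibroblast markers to 32.6 to 176 and 20.4 to 65.4, endothelial markers to 62.7 to 246 and 60.1 to 105, keratinocyte markers to 2.51 to 95.9 and 11.5 to 27.3, T and NK cell markers to 10 to 121 and 30 to 36, and erythroid markers to 151 to 271 and 201 to 225. The groups overlapped in each summed list, and no listed marker was at 0 in all tumours. In edgeR, the 2 tested Schwann cell markers of 8 both had an unadjusted p under 0.05, beside 4.36% of all tested genes. Both were lower in SEVO (median log2 fold change -1.38). Reads within that list went both ways. Mbp had 28, 10 and 26 in CTRL and 11, 7 and 11 in SEVO tumours, and Ncam1 18, 14 and 13 against 4, 3 and 10. S100b, which was not among the 2 tested, had 9, 6 and 8 against 8, 10 and 16. The 3 tested endothelial markers of 8 were below 0 (median -1.45, from -1.46 to -0.14), as were 51.1% of all tested genes. Reads within this list went both ways too. Vwf had 77, 2 and 30 reads in CTRL and 14, 6 and 23 in SEVO tumours, with CTRL tumour 2 the lowest. Eng had 20, 39 and 21 against 27, 32 and 21, and Emcn 7, 0 and 3 against 6, 8 and 6. No tested marker of these 2 lists had an adjusted p under 0.05. The remaining lists had 0 to 2 tested genes each, none past either threshold, and the part of cell composition in the melanocyte genes was not tested.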

How the data were processed

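RNA-seq of 6 tumour samples was analysed, 3 CTRL and 3 SEVO, grouped by their titles. The authors removed ribosomal reads with SortMeRNA, trimmed with Trimmomatic 0.36, aligned with STAR 2.6.0c to GRCm38.p6, kept unique reads and counted them per gene with HTSeq 0.9.1 on GENCODE M17 (versions from the submitters' processing notes). The deposited values are these raw read counts, with no normalization, followed by 5 tallies of reads not counted, which were kept out of the library sizes. Names, positions, exon lengths and overlaps came from GENCODE M21 on GRCm38, which held 53706 of the 53801 identifiers.

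Genes were compared with edgeR 4.0.16 (TMM, filterByExpr with its default minimum count of 10, quasi-likelihood test) in R 4.3.3, and Mc1r and Gpr143 in the same fit over all genes with at least 1 read. SE was derived from the F statistic. The tool named in the study's methods, DESeq2 (1.42.0), and limma voom (3.58.1) were alternatives, with other scalings and filters, the replicate number as a block, and each tumour left out in turn. Exact permutation tests used log2 CPM with a prior count of 2 over all 20 assignments of 3 and 3 tumours. The ratio of reads on 2 genes used a pseudocount of 0.5 reads. The fits were tested on simulated data. Counts of same-group tumours differed beyond sampling noise (chi-squared per gene 4.33 to 22.9 between CTRL tumours and 2.17 to 4.77 between SEVO tumours). No source says which tumours of a group came from separate cultures, so p-values cover the spread between these samples, which may be partly technical.

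The 10 genes and the lists were chosen with earlier results of these data known. Genes named singly are the 10 genes, genes with exons opposite them, up to 3 genes with the lowest p and the most counted gene of each list, Ptprc, Csf1r, Ly6c2, Cd68, Adgre1, Gm10800 and Gm10801. Others were chosen after their values were seen.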

Additional observations from a re-analysis of the deposited data

How the results depend on the processing

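No alternative with all 6 tumours or with a tumour left out gave a melanocyte gene, or a gene of the related lists, an adjusted p under 0.05 (lowest 0.218 for the melanocyte genes, without CTRL tumour 2), so the direction is the part that can change. In the fit over all genes with a read, 5 of the 10 genes were below 0. This was 9 with scaling to all uniquely aligned reads and 9 on the scale of the filtered genes (chosen after seeing the data), and 2 to 9 with a tumour left out. Their median then lay between -0.50 and 0.25. The median of the 7561 tested genes was -0.02 as reported, 0.22 with library size only, -0.18 with scaling to all uniquely aligned reads, 0.44 without the filter and 0.29 in the DESeq2 test, which also had no filter. With DESeq2's size factors on the filtered genes it was -0.0078. Relative to that median all 8 tested melanocyte genes were lower under every alternative except without SEVO tumour 1, where 6 were. Above 0 stood Sox10 with library size only (0.14), no filter (0.33), DESeq2 (0.17), with -0.32 to 0.28 over the fits that leave out a tumour, and Pmel with library size only (0.10), no filter (0.25), DESeq2 (0.11), with -0.48 to 0.11 over those fits. Without a filter Tyrp1 (0.06) and Slc45a2 (0.14) did so too. Without a filter and in DESeq2, 2 melanocyte genes did not overlap between the groups, on the scale of the filtered genes 1, and 0 to 7 with a tumour left out, 7 without SEVO tumour 3. Over all genes in these fits, 5.11%, 5.40%, 5.59% and 11.7% to 46.6% did not overlap, and 31.9% without SEVO tumour 3. Over all genes, 0 passed an adjusted p under 0.05 in edgeR (330 at an unadjusted p under 0.05), 0 in DESeq2 (265) and 0 in limma voom (203), 1 with the replicate block, 1 on the scale of the filtered genes, and 0 to 31 with a tumour left out, 31 without CTRL tumour 2. Same-numbered tumours had correlations of -0.40, 0.32 and 0.08 in their deviations from the group means. These 3 values are too few to tell whether the numbers pair the tumours, and the main fit used no pairing. With the block, the median of the 10 genes was 0.01 and 0 melanocyte genes passed. Prior counts of 0.5 and 5 left the exact permutation p of the 8 tested melanocyte genes as it was (not run for Mc1r and Gpr143). Where a value moved, the cause was not tested. Counts of 4 to 619 reads per tumour on the 8 tested genes limit what can be detected.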
